A study of Mus musculus with 12 samples.

Results

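The mitochondrial ribosomal protein genes are the 77 rows of the count table whose symbols begin with Mrpl or Mrps and a digit, 48 Mrpl and 29 Mrps genes, out of 24411 rows in all. Mrpl symbols were given to proteins of the large subunit and Mrps symbols to proteins of the small one, but Mrps18a and Mrps30 are now placed in the large subunit and Mrps36 in neither. All 77 passed the filter on low counts, as did 15199 rows of the whole table. Bulk RNA-seq libraries were made from female medial prefrontal cortex at an age of 8 to 12 weeks, 3 libraries for each of 4 groups. Unstressed WT mice were C57BL/6J animals bought from a breeder, and stressed WT mice were such animals given a daily swim or tail suspension session for 5 days. Unstressed and stressed KO mice lacked Cav3.1, the T-type calcium channel encoded by Cacna1g, on a background given as C57BL/6J. They came from a repository, so that genotype and colony of origin cannot be told apart. Nothing in the labels ties each library to an animal of its own, and p-values therefore speak of library-to-library spread alone, which may be technical. In bulk tissue, fewer cells of a type and less RNA per cell cannot be told apart.

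Mitochondria have their own ribosome, which translates the few messages of the mitochondrial genome, all of them coding for membrane subunits of the oxidative phosphorylation complexes. Its ribosomal RNAs are made in the mitochondrion, but every protein of it is encoded in the nucleus, made in the cytosol and imported. Some of these proteins descend from bacterial ribosomal proteins and others were added in the mitochondrial lineage. Neurons depend on oxidative phosphorylation for much of their ATP, and nuclear genes of this machinery are known targets of the transcription factors NRF1, GABPA (NRF2, of the ETS family) and YY1.

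Sequences upstream of and around the start are shown because letters bound by these factors were more frequent in the members' promoters than in those of all genes, tested here or not. The choice by symbol did not use this feature, and many members lack it. RefSeq promoter windows of 300 bases (GRCm38.p6, from 250 bases before to 50 bases after the annotated start) existed for 68 of the 77 members and for 27025 genes in all. The ETS letters CCGGAAG, searched on both strands, were in 25 of the 68 (36.8%, Wilson 95% interval 26.3 to 48.6%) and in 9.93% of all promoters. The YY1 letters AAGATGGC were in 12 members (17.6%) against 3.19% of all promoters. The NRF1 letters GCATGCGC, whose 2 strands can overlap at a site, were in 8 members (11.8%) against 3.05%. The letters TATAAA were in 5 members (7.4%) against 15.67%, and the GC box GGGCGG was in 34 members (50.0%) against 38.2%. In all, 37 of the 68 members held the ETS, YY1 or NRF1 letters at least once. A match describes letters only and shows no binding.

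A selection of sites, from members whose values are described below, is given 5′ to 3′ on the gene's strand, with the matched letters in capitals; an ETS site on the other strand reads CTTCCGG, and a YY1 site on the other strand reads GCCATCTT.
Mrpl33, ETS, chr5:31613937-31613966 (+): ccgcgcatgccCCGGAAGtagtcgttgagc
Mrpl33, NRF1 on the other strand, chr5:31613928-31613957 (+): taccggaacccGCGCATGCcccggaagtag
Mrps18c, ETS on the other strand, chr5:100798592-100798621 (+): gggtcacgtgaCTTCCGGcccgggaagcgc
Mrps12, ETS, chr7:28741802-28741831 (−): aaggaggaaccCCGGAAGgggctggaggta
Mrpl36, YY1 on the other strand, chr13:73330968-73330997 (+): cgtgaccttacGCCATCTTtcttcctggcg
Mrps33, ETS on the other strand, chr6:39810887-39810916 (−): aagtaaaggggggcgggcCTTCCGGggacg
Mrps27, ETS on the other strand, chr13:99344727-99344756 (+): tggtaggaccaCTTCCGGcggaggcgggct
Mrpl10, NRF1, chr11:97041437-97041466 (+): cccagctccacGCATGCGCatagcggccct
The neighbouring Mrpl33 windows overlap, with the NRF1 letters upstream of the ETS letters. Relative to the annotated start, the matched letters begin at 38 bases in Mrps33 and at 1 in Mrps12, so they lie after the start. The ETS letters of Mrpl33 begin at -3 bases and run across it. The rest of the sites shown lie before the start.

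Mrpl20, Mrps14 and Mrpl41, which were also among the members with the largest changes, held none of the 3 kinds of site in the 250 bases before their starts, shown here with no letters in capitals.
Mrpl20, chr4:155802628-155802877 (+): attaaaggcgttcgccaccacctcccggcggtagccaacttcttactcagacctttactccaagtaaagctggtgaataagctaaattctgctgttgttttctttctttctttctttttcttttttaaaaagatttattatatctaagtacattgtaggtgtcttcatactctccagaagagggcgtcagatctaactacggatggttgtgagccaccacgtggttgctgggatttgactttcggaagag
Mrps14, chr1:160194965-160195214 (+): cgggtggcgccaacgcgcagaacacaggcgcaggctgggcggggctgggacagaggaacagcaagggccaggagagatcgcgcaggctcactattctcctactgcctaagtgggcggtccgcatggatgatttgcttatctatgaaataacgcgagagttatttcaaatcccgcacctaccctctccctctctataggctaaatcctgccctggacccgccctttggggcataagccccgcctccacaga
Mrpl41, chr2:24975099-24975348 (−): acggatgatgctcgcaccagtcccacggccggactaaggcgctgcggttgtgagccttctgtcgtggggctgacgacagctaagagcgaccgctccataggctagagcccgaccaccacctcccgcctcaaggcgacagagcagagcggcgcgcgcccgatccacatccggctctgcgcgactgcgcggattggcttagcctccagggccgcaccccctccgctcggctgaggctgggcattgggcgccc

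The libraries held 15469590 to 31082240 counts, and the 77 members took 0.176 to 0.226% of them. Cacna1g itself was lower in KO, by a log2 difference of -1.18 without stress and -0.93 with stress. Nnt, a gene outside the family, was higher in KO. Without stress its mean was 16.4 CPM in WT and 32.4 CPM in KO (log2 difference 0.98 ± 0.08 SE, edgeR adjusted p = 0.00012). With stress it was 16.8 and 29.9 CPM (0.83 ± 0.08 SE, edgeR adjusted p = 0.000453). Whether the colonies shared the same background was not tested. Cortical excitatory neuron markers were detected for 10 of 10 genes, summing to 1545 to 2829.8 CPM (counts per 1000000, with scaled library sizes) per library: 1545, 1822 and 2451 in unstressed WT libraries 1, 2 and 3, and 2339.9 or more in every other library. Most members were also lowest in unstressed WT, as given below, and the part of these markers in that was not tested. The 8 interneuron markers summed to 2119.9 and 1760.3 CPM in unstressed WT libraries 1 and 2, against 934 to 1170.3 CPM in the other 10. The average log2 level of the same 8 genes, each centred on its own mean, went the other way. That average was -0.1, -0.09 and -0.07 in unstressed WT libraries 1 to 3, against 0 to 0.07 elsewhere. The high sums therefore do not hold for the list as a set. Some libraries also stood apart in markers of tissue outside this region. Of the 12 olfactory bulb markers, all were detected in some library, and their sum was 1058, 1095 and 135 CPM in unstressed WT libraries 1, 2 and 3 against 28.9 to 142 CPM elsewhere. The 10 markers of meninges and fibroblasts summed to 283, 334 and 128 CPM in these libraries and to 45.1 to 119.8 CPM elsewhere. The 10 striatal markers summed to 785 CPM in stressed KO library 1 and to 167 to 266 CPM in the other libraries. The 10 oligodendrocyte markers summed to 1571, 1418 and 1318 CPM in unstressed WT and 1939.7, 2096 and 3371 CPM in stressed WT, without overlap. In KO they summed to 1431, 1687 and 1449 CPM without stress and to 2798, 1315 and 1250.2 CPM with stress. The part of these markers in the members' difference between the WT groups was not tested. The 8 astrocyte markers summed to 4738 CPM in unstressed KO library 2 against 2612 to 3411 CPM in the other libraries. No gene of these lists was at 0 in every library.

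The members tended to shift together from library to library. Each gene's log2 CPM was centred on its own mean, and the average over the 77 members was -0.09, -0.23 and -0.19 in the unstressed WT libraries 1 to 3. Stressed WT libraries had averages of 0.08, 0.08 and 0.03. For the KO libraries the averages were 0.03, 0.22 and -0.06 without stress, and 0.00, 0.02 and 0.10 after it. The 3 unstressed WT libraries were thus the lowest of the 12, and unstressed KO library 2 was the highest. Unstressed WT library 2 held the lowest value of the 12 for 44 members and library 3 for 20, whereas unstressed KO library 2 held the highest value for 41. The SD within groups was 0.09 when pooled. Taken separately, the Mrpl and Mrps genes had like averages, for example -0.24 and -0.22 in unstressed WT library 2 and 0.23 and 0.21 in unstressed KO library 2.

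**Figure D1:**
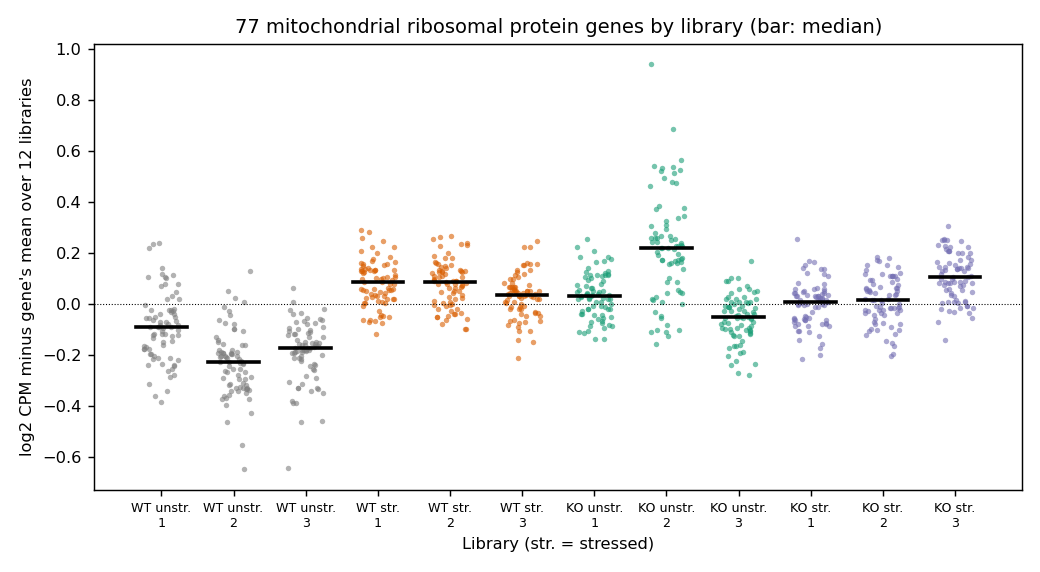
Each point is 1 of the 77 members in 1 library, as its log2 CPM minus its own mean over the 12 libraries, and the bar is the median of the members. The unstressed WT libraries lie lowest, and unstressed KO library 2 lies highest and is the most spread out.

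In WT mice, the stressed libraries had more of most members than the unstressed ones. The fold change was above 0 for 74 of 77 members, with a median log2 difference of 0.24 (17.7% higher), against 50.3% of all genes tested and a median of 0.00. At an adjusted p under 0.05, 23 members were higher and 0 were lower (29.9%), where 9.71% of all genes tested were higher and 12.1% lower. Values of the 2 groups did not overlap for 55 members, all higher with stress, against 19.4% of all genes in that direction. The difference came in small steps over many genes: the largest log2 change of a member was 0.59.

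Mrpl20, a large-subunit protein of bacterial descent, stood at 33.0, 30.7 and 34.1 CPM in unstressed WT and 45.4, 49.6 and 43.1 CPM in stressed WT. The lowest stressed library exceeded the highest unstressed one, and the log2 difference was 0.50 ± 0.12 (SE, adjusted p = 0.0178). Mrps14, a protein of the small subunit's head, was at 25.8, 23.9 and 26.2 CPM in unstressed WT, and stressed libraries held 36.6, 36.8 and 31.7 CPM, a log2 difference of 0.47 ± 0.10 (SE, adjusted p = 0.0162). Its groups did not overlap either.

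Mrpl36, among the smallest proteins of the large subunit, had the lowest p of all members. It was tightly grouped without stress, at 14.4, 14.0 and 14.0 CPM, and stood at 21.5, 19.2 and 17.8 CPM with stress (log2 difference 0.46 ± 0.08 SE, adjusted p = 0.0122). Mrps18c, which with Mrps18a and Mrps18b forms a family of 3 mitochondrial relatives of bacterial S18, was at 18.0, 13.6 and 15.5 CPM and then 21.8, 22.7 and 20.3 CPM (0.46 ± 0.15 SE, adjusted p = 0.0460). Its unstressed WT values spread more widely than those of Mrpl36.

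Mrps33, a small-subunit protein without a bacterial counterpart, was at 48.1, 39.8 and 43.1 CPM in unstressed WT and 57.5, 61.9 and 54.3 CPM in stressed WT (log2 difference 0.41 ± 0.12 SE, adjusted p = 0.0338). Mrps12, a protein of the decoding centre, was at 22.6, 22.2 and 24.4 CPM and then 30.1, 27.3 and 31.7 CPM (0.36 ± 0.09 SE, adjusted p = 0.0183). Both rose with no overlap between the groups. The other 17 called members rose by 0.23 to 0.36 on the log2 scale, among them Mrpl10 and Mrpl12, which build the stalk of the large subunit, at 0.32 ± 0.06 and 0.33 ± 0.09. Mrpl33, also of bacterial descent, had the largest change of any member at 0.59 ± 0.21, with no overlap between groups, but an adjusted p of 0.0621.

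Only 3 members had values below 0 in this comparison, none past the threshold. Mrps5, a small-subunit protein of bacterial descent, was at -0.14 ± 0.08, Mrps6 at -0.04 ± 0.10 and Mrpl3, at the core of the large subunit, at -0.02 ± 0.09. Mrps6 was the 1 member with decimal values in all 12 libraries, the mark of reads shared out between genes, and 159 exon bases of it lie in Slc5a3 on the same strand.

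The count of 23 rested on single libraries, whereas the direction did not. Without unstressed WT library 2, or without stressed WT library 2, 0 members and 0 of all genes were called. Without unstressed WT library 1, or without stressed WT library 1 or 3, the count was 11, 10 and 10, and without unstressed KO library 1 it was 15. For the fits with 10 to 15 called, the share of all genes called is not given here. Their counts are therefore no result about the members alone. With the members' medians at 0.18 to 0.28 over the 12 fits that each left out 1 library, the size of the difference stayed near 0.24. Without the 2 unstressed WT libraries that were rich in olfactory bulb markers, the median was also 0.24 and 0 members were called, from a group of 1 library assumed to vary like the others; with the bulb marker score as a covariate the median was 0.29 with 0 called.

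**Figure D2:**
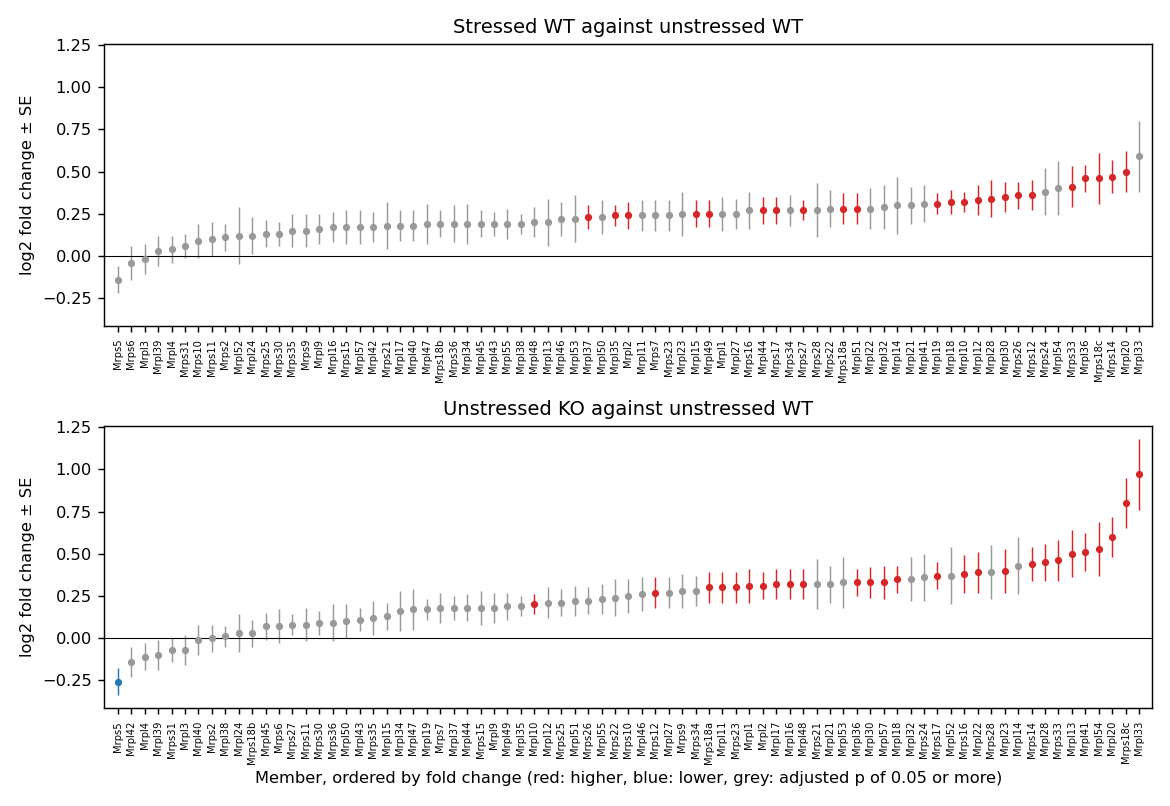
Each point is the log2 fold change of 1 member with its SE (vertical line), ordered by size, for stressed against unstressed WT (upper panel) and unstressed KO against unstressed WT (lower panel). Of 77 members, 23 are called higher in the upper panel (red), and 27 higher (red) and 1 lower, Mrps5 (blue), in the lower; both panels share the unstressed WT libraries.

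In KO mice, no member passed the threshold between stressed and unstressed libraries (edgeR, 0 of 77; 0.0197% of all genes tested were called, and DESeq2 called 0 members), and 3 members had an unadjusted p under 0.05, against 9.2% of all genes. The median log2 difference was -0.03, and 29 of 77 members were above 0, against 49.1% of all genes. The lowest p belonged to Mrpl38, a large-subunit protein without a bacterial counterpart, at 30.6, 31.8 and 31.2 CPM in unstressed KO and 37.8, 36.3 and 38.6 CPM in stressed KO. Its groups did not overlap, and the log2 difference was 0.27 ± 0.06 (SE, adjusted p = 0.466). Mrpl10 had 0.15 ± 0.06, Mrps2, of the small subunit, 0.18 ± 0.08, and Mrps27, an RNA-binding pentatricopeptide protein of the small subunit, 0.14 ± 0.06, none past the threshold.

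Of the 6 members with the largest called rises in WT, Mrpl36 (0.13 ± 0.08) and Mrps12 (0.04 ± 0.09) were above 0 in KO and the other 4 below, none past the threshold. Mrpl33 was at 14.5, 23.3 and 11.9 CPM in unstressed KO and 13.2, 10.6 and 15.0 CPM in stressed KO, a log2 difference of -0.36 ± 0.21 (SE, adjusted p = 0.62). Mrps14 had -0.20 ± 0.11, Mrps18c -0.25 ± 0.15, Mrpl20 -0.16 ± 0.12 and Mrps33 -0.24 ± 0.12. In each of these genes unstressed KO library 2 was the highest of the 12 libraries.

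Whether the effect of stress differed between genotypes was tested as an interaction, the effect in KO minus the effect in WT. edgeR called 0 members and 0% of all genes. The members nonetheless lay to one side: 72 of 77 interaction terms were below 0, with a median of -0.27 against -0.02 over all genes. The other 5 terms were above 0, against 48.6% of all genes. By edgeR, 27 members had an unadjusted p under 0.05, all negative (35.1%), where 14% of all genes did so in that direction. This side was not particular to the family. Of 80 tested cytosolic ribosomal protein genes, 4 terms were above 0, with a median of -0.31. The term draws on the same 3 unstressed WT libraries and on unstressed KO library 2, described above. The smallest p was that of Mrps14, at -0.67 ± 0.15 (SE, adjusted p = 0.0507). Mrpl19, a large-subunit protein of bacterial descent, had -0.35 ± 0.09 (adjusted p = 0.0577), Mrpl20 -0.65 ± 0.16 (0.0577 adjusted p) and Mrps33 -0.65 ± 0.17 (0.0602 adjusted p). DESeq2 called 10 members, all negative, which is 13% of the members where it called 12.4% of all genes, so that the members' share was near that of all genes. Leaving out unstressed WT library 3 also gave 10 in edgeR, where 25% of all genes were then called.

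Without stress, the KO libraries had more of most members than the WT libraries. At an adjusted p under 0.05, 27 members were higher and 1 was lower, where 11.2% of all genes tested were higher and 12.1% lower. The median log2 difference was 0.25 (18.6% higher), against 0.00 over all genes, and 69 members were above 0, against 50.6% of all genes. The groups did not overlap for 38 members in the higher direction (49.4%, against 18.5% of all genes) and for 2 in the lower (18% of all genes). This comparison uses the same 3 unstressed WT libraries as the stress comparison in WT, so the values of the 2 comparisons are not independent.

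Mrpl33 had the largest difference. It was at 9.29, 8.28 and 7.78 CPM in unstressed WT and 14.5, 23.3 and 11.9 CPM in unstressed KO, with no overlap and a log2 difference of 0.97 ± 0.21 (SE, adjusted p = 0.0132). Mrps18c followed at 18.0, 13.6 and 15.5 CPM in WT and 24.6, 34.3 and 22.9 CPM in KO (0.80 ± 0.15 SE, adjusted p = 0.00991). In both genes library 2 of unstressed KO was far above the other 2, and all 3 lay above WT.

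Mrpl20 reached 48.2, 58.8 and 40.8 CPM in unstressed KO, against the WT values of 30.7 to 34.1 CPM (0.60 ± 0.12 SE, adjusted p = 0.0101). Mrpl54, a large-subunit protein without a bacterial counterpart, was at 8.57, 8.25 and 7.98 CPM in WT and 11.2, 15.4 and 9.12 CPM in KO (0.53 ± 0.16 SE, adjusted p = 0.0346). Mrpl41, also added in the mitochondrial lineage, was at 33.0, 29.0 and 33.6 CPM and then 42.1, 54.9 and 39.2 CPM (0.51 ± 0.11 SE, adjusted p = 0.0145). These 3 genes also had no overlap between the groups. Mrpl13, of bacterial descent, was at 25.5, 20.6 and 20.2 CPM in WT and 29.9, 38.4 and 25.4 CPM in KO (0.50 ± 0.14 SE, adjusted p = 0.0263), and here the groups just met.

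Mrps5 was the 1 member called lower. It stood at 39.3, 36.4 and 34.8 CPM in unstressed WT and 32.8, 31.0 and 28.2 CPM in unstressed KO, a log2 difference of -0.26 ± 0.08 (SE, adjusted p = 0.0412). Every KO library was below every WT library. Mrps31, a small-subunit protein, also did not overlap and lay lower in KO, by -0.07 ± 0.07, far from the threshold.

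This count too depended on libraries: it was 0 without unstressed WT library 2 and 6 without unstressed KO library 2, the one with high astrocyte markers. Without unstressed WT libraries 1 and 2 and unstressed KO library 2 together, the median was 0.19 with 0 called. Transcript length moved with the result as well: 43 of the 77 members are among the 3656 genes with the shortest transcripts of 14622, and the median level of these genes relative to the 3656 with the longest ranged from -0.22 (log2) in unstressed WT library 3 to 0.23 in stressed KO library 3. With that trend removed from each library, the median was 0.13 for genotype without stress, with 23 called, and 0.17 for stress in WT, with 14 called. For the fits with 6, 23 and 14 called, the share of all genes called is not given here. These counts are therefore no result about the members alone.

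**Figure D3:**
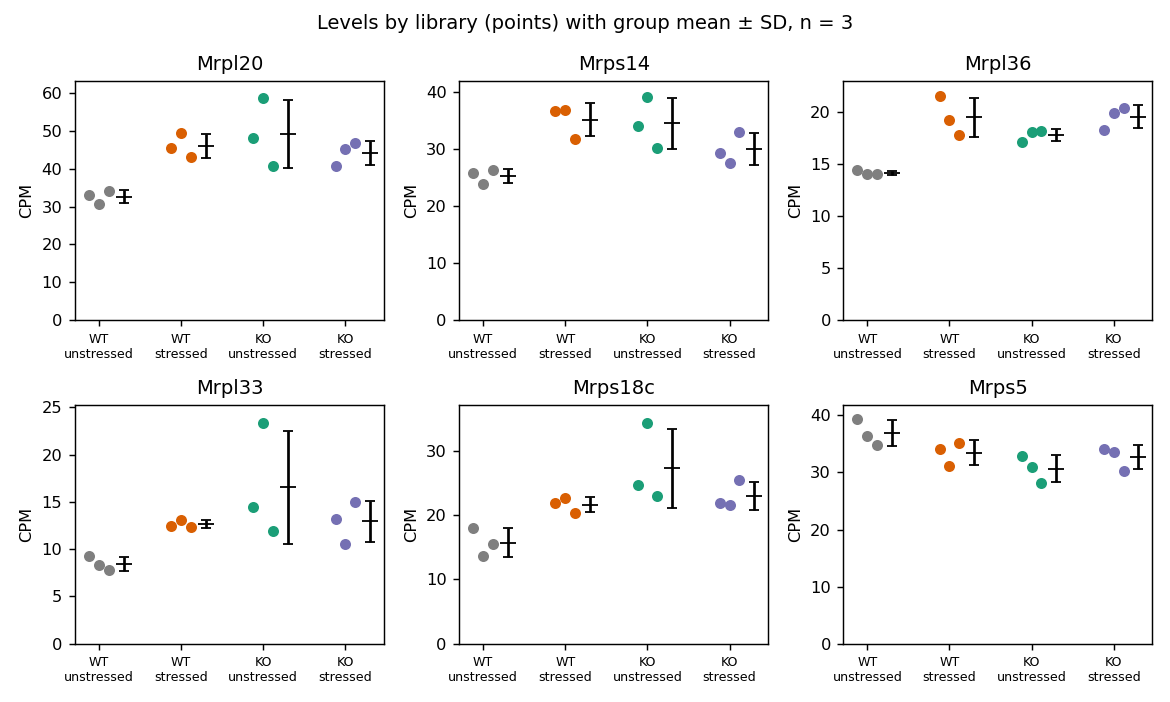
CPM of 6 members in each library (points), with the mean ± SD of the 3 libraries of each group beside them. Mrpl20, Mrps14, Mrpl36, Mrpl33 and Mrps18c are lowest in unstressed WT, whereas Mrps5 has its highest mean there; unstressed KO library 2 is the top point for Mrpl20, Mrps14, Mrpl33 and Mrps18c.

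With stress, no member differed between KO and WT past the threshold (edgeR, 0 of 77; 0.25% of all genes were called, and DESeq2 called 0 members), and 3 members had an unadjusted p under 0.05, against 13% of all genes. The median log2 difference was -0.02. Mrpl42, a protein without a bacterial counterpart, was at 35.5, 34.3 and 35.9 CPM in stressed WT and 26.8, 27.8 and 32.0 CPM in stressed KO, without overlap (-0.29 ± 0.09 SE, adjusted p = 0.22). Mrpl19 had -0.18 ± 0.06, Mrpl51 -0.21 ± 0.09 and Mrps14 -0.23 ± 0.11, none of them called.

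Averaged over stress, 1 member was higher in KO, Mrps18c, where 3.11% of all genes were called higher. Its mean was 18.7 CPM in WT and 25.1 CPM in KO, a log2 difference of 0.44 ± 0.10 (SE, adjusted p = 0.0361). Next came Mrpl16, at 0.24 ± 0.07 (adjusted p = 0.0521), Mrpl2, at the heart of the large subunit, at 0.20 ± 0.06 (adjusted p = 0.0566) and Mrpl41 at 0.28 ± 0.08 (adjusted p = 0.0613). The difference of Mrps18c was 0.80 ± 0.15 without stress and 0.09 ± 0.15 with it.

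The members were also read by symbol and by evolutionary class. For stress in WT the median was 0.24 for the 48 Mrpl genes, with 15 called, and 0.24 for the 29 Mrps genes, with 8 called. Members of bacterial descent had 0.25 in the large subunit (11 of 30 called) and 0.21 in the small subunit (4 of 16); members added in mitochondria had 0.21 (5 of 20) and 0.25 (3 of 10). For genotype without stress the same 4 classes had medians of 0.31 (15 of 30 higher), 0.28 (5 of 16 higher, 1 lower), 0.19 (5 of 20 higher) and 0.21 (2 of 10 higher). The medians thus lay closer together for stress in WT than for genotype without stress, where large-subunit members of bacterial descent had the highest; differences between classes were not tested. Mrps18a and Mrps30 were counted with the large subunit, and Mrps36, which the field has since assigned to the 2-oxoglutarate dehydrogenase complex, in no class. Although relatives of bacterial S18, Mrps18a and Mrps18b were counted among members added in mitochondria, and Mrps18c among those of bacterial descent. Mrps18a was called higher in both comparisons and Mrps18b in neither.

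The promoter letters split the members in different ways in the 2 comparisons. For stress in WT the 25 with the ETS letters had a median of 0.27 with 8 called, and the 43 without had 0.23 with 13 called. For the YY1 letters, 7 of 12 holders were called (median 0.26) against 14 of 56 others (0.22); for the NRF1 letters, 1 of 8 holders (0.24) against 20 of 60 (0.24). For genotype without stress, 12 of 25 ETS holders were higher (0.32) against 13 of 43 others (0.20), 3 of 12 YY1 holders (0.19) against 22 of 56 (0.26), and 4 of 8 NRF1 holders (0.26) against 21 of 60 (0.25). These are descriptions and were not tested.

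Mrpl44, a large-subunit protein with an RNase III fold, needs its neighbour beside it. It lies at chr1:79776018-79781445 (+) and Wdfy1, which codes for an endosomal adaptor, at chr1:79702262-79776143 (−), in mm10. The 2 genes start head to head and overlap over 126 bases at their 5′ ends (79776018 to 79776143), which is 7.66% of the exon bases of Mrpl44. The library kit keeps strand, but no source used here says whether counting used it, so reads in the overlap may belong to either gene. Mrpl44 had decimal values, the mark of shared reads, in 0 libraries. What this says of the reads in the overlap was not tested.

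Wdfy1 was at 25.1, 25.7 and 21.1 CPM in unstressed WT and 69.4, 73.4 and 66.5 CPM in unstressed KO, and the 2 stressed groups were as far apart, at 20.1, 16.3 and 17.7 CPM and 70.1, 66.1 and 65.5 CPM. Its log2 difference between KO and WT was 1.54 ± 0.09 without stress (adjusted p = 9.91e-06) and 1.90 ± 0.10 with stress (adjusted p = 1.15e-06). Mrpl44 did not follow it: the genotype difference was 0.18 ± 0.08 without stress (adjusted p = 0.103), -0.15 ± 0.08 with stress (adjusted p = 0.446) and 0.02 ± 0.05 on average (adjusted p = 0.875).

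Stress in WT was the comparison in which Mrpl44 was called. It was at 19.0, 18.7 and 18.4 CPM in unstressed WT and 24.7, 22.2 and 20.7 CPM in stressed WT, with no overlap (0.27 ± 0.08 SE, adjusted p = 0.0312), while Wdfy1 fell by 0.41 ± 0.09 (adjusted p = 0.0169). In KO, Mrpl44 values were 20.9, 21.9 and 20.9 CPM in unstressed libraries, against 20.6, 19.6 and 20.7 CPM after stress, a difference of -0.06 ± 0.08 (adjusted p = 0.841), and its interaction term was -0.33 ± 0.11 (adjusted p = 0.0878). Serpine2 and Ap1s3, the other genes listed beside it, did not pass the threshold in any of the 6 comparisons.

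**Figure D4:**
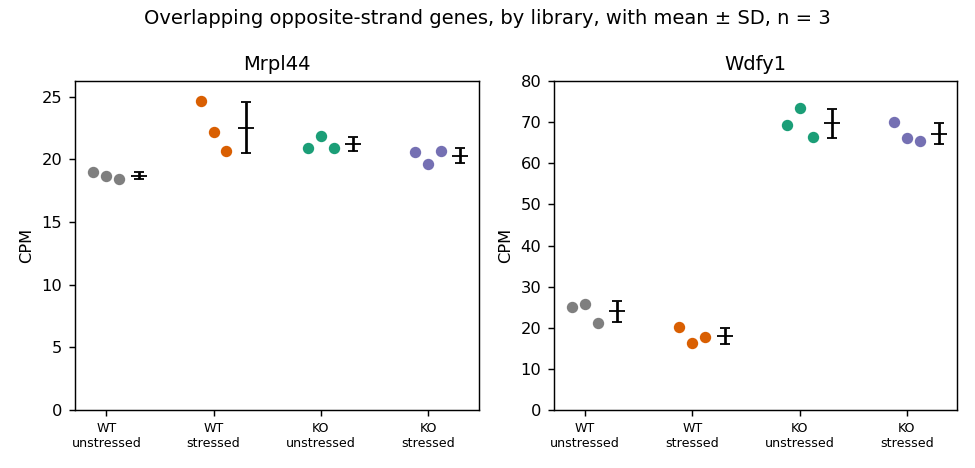
CPM of Mrpl44 and of Wdfy1 in each library (points), with the mean ± SD of the 3 libraries of each group. Wdfy1 is at 65.5 to 73.4 CPM in the KO libraries and at 16.3 to 25.7 CPM in the WT libraries, whereas Mrpl44 stays between 18.4 and 24.7 CPM.

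Many members share a start region with another gene. An annotated start of a gene on the opposite strand lay within 1000 bases of the start of 33 of the 77 members (42.9%), against 14.6% of 14011 protein-coding genes tested. Exons of 18 members overlap exons of another tested gene. The overlap is widest for Mrps25, with 69.8% of its exon bases in Nr2c2 on the opposite strand, and for Mrps34, with 63.4% in Mapk8ip3 on the opposite strand and 37.0% in Nme3 on the same strand. For these genes, for Mrpl19 (36.0% in Gcfc2) and for Mrpl24 (26.3% in Rrnad1) the counts are uncertain. Mrps25, Mrps34, Mrpl19 and Mrpl24 had decimal values in 0 libraries, and whether reads in the overlaps were shared out was not tested. Mrpl46 and Mrps11 overlap each other over 173 exon bases. Of the 10 members on chromosome 11, Mrpl27, a protein near the peptidyl transferase centre, lies closest to Cacna1g, at 0.18 Mb, followed by Mrpl10 at 2.567 Mb. The KO-WT log2 difference of Mrpl27 was 0.27 ± 0.09 without stress (adjusted p = 0.0512) and 0.01 ± 0.09 with stress (adjusted p = 0.974).

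Members differed widely in level per exon length, as CPM per kilobase of exon (RPKM), with a median of 10.9. The highest were Mrpl41 at 44.4 RPKM, Mrps21 at 35.7, Mrps33 at 31.8, Mrpl27 at 28.4 and Mrpl12 at 27.8 RPKM. The lowest were Mrps35 at 1.51 RPKM, Mrpl33 at 1.73, Mrps10 at 2.22, Mrpl47 at 2.54 and Mrpl32 at 3.03 RPKM. These levels depend on the exon length chosen: with the longest transcript in its place the median was 14.5 RPKM, the highest were Mrps21 at 54.1, Mrpl20 at 53.1 and Mrpl41 at 50.8 RPKM, and Mrpl33 left the lowest 5, at 4.61 RPKM. Mrps35 was lowest with either length.

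**Figure D5:**
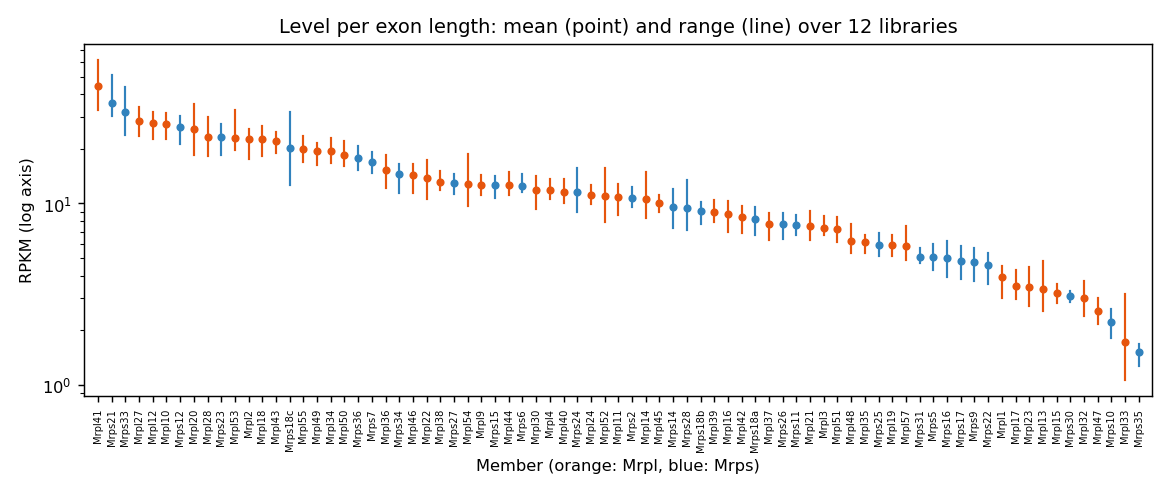
Level of each member per kilobase of exon (RPKM, log axis), ordered from highest to lowest, with the mean (point) and the range (line) over the 12 libraries. Mrpl41 is highest at 44.4 RPKM and Mrps35 lowest at 1.51 RPKM; Mrpl and Mrps symbols mix along the order.

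As a description of how alike the members were over the 12 libraries, which share depth and composition effects, each member's log2 CPM was correlated with that of every other member. The mean correlation had a median of 0.58, and 60 of the 77 were over 0.5. Mrpl30 and Mrpl18 (0.70), Mrpl12 (0.69) and Mrpl20, Mrpl11, Mrpl28 and Mrps18a (0.68) were the most alike to the rest. Mrps5 (-0.37), Mrps31 (-0.05), Mrpl39 (-0.01), Mrpl4 (0.01) and Mrpl3 (0.07) were the least alike. The members had a median SD of log2 CPM of 0.155, against 0.201 over all genes tested. These were not matched for level: members had counts of 111 to 1659 per library, whereas the filter admits genes near a count of 10. The part of level in this difference was not tested.

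Other proteins of the mitoribosome and of its machinery were read from lists. Over all genes tested, 21.9% were called in either direction for stress in WT and 23.2% for genotype without stress, and the shares called of the lists of translation factors, assembly factors, tRNA synthetases and transcription genes were near or below these, so that their counts are no result about the lists. Of 6 subunits with other symbols, 1 rose with stress in WT: Aurkaip1, a small-subunit protein (0.38 ± 0.09 log2, adjusted p = 0.0200), and the median was 0.17. For genotype without stress 2 of the 6 were higher, Aurkaip1 and Chchd1, another small-subunit protein (0.46 ± 0.14, adjusted p = 0.0341). Of 14 tested translation factors, 3 rose with stress in WT, the elongation factors Tufm (0.21 ± 0.06) and Tsfm (0.27 ± 0.09) and the ribosome recycling factor Mrrf (0.28 ± 0.09), and Guf1, a ribosome-bound GTPase, fell by 0.39 ± 0.09; the median was 0.08. For genotype without stress Mrrf was higher (0.32 ± 0.09) and Oxa1l, the membrane insertase at the ribosome's exit, lower (-0.24 ± 0.07).

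Of 26 tested assembly factors, 3 rose and 1 fell with stress in WT, with a median of 0.09. Mtg1, a GTPase of large-subunit assembly, had 0.29 ± 0.08, Fastkd2 0.26 ± 0.08 and the rRNA methyltransferase Mrm1 0.33 ± 0.11, while Mettl17, a small-subunit assembly factor, fell by 0.50 ± 0.10. Mtg1 had the lowest p between genotypes of all genes of the translation machinery listed here: its mean was 12.9 CPM in WT and 23.1 CPM in KO without stress (0.84 ± 0.08, adjusted p = 0.000204) and 15.7 and 23.2 CPM with stress (0.56 ± 0.08, adjusted p = 0.00726). No member differed between genotypes in both stress states.

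Of 17 mitochondrial aminoacyl-tRNA synthetases, Yars2 rose (0.37 ± 0.09) and Vars2 fell by 0.27 ± 0.07 with stress in WT, the median being 0.07; 2 were higher and 2 lower for genotype without stress. Of 15 tested genes of mitochondrial transcription and RNA processing, Tfam, which packages mitochondrial DNA, rose (0.24 ± 0.07) and the polymerase Polg fell by 0.22 ± 0.07; 2 were higher and 2 lower for genotype without stress. Of 15 genes taken as markers of mitochondrial mass, 5 rose with stress in WT and none fell, with a median of 0.17: Tomm22 and Tomm20 of the outer-membrane import pore (0.33 ± 0.08 and 0.30 ± 0.08), Vdac3, Phb and Timm23. While 14 of the 15 were above 0, the lowest were Timm44 (-0.11 ± 0.09), Cs (0.00 ± 0.06) and Phb2 (0.06 ± 0.07). Whether mitochondrial mass differed was not tested. In unstressed KO against WT 5 of the 15 were higher, with a median of 0.18.

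A list taken as regulators of mitochondrial biogenesis, which also holds Atf4, Atf5, Ddit3, Myc and Mycn, had medians below 0 in both comparisons. Of 14, Atf4, the transcription factor of the integrated stress response, rose with stress in WT (0.28 ± 0.07) and the coactivator Ppargc1a fell by 0.35 ± 0.09, and the median was -0.15. In unstressed KO against WT none was higher and 5 were lower: Atf5 (-1.34 ± 0.27), Ppargc1b (-0.52 ± 0.13), Pprc1 (-0.36 ± 0.10), Atf4 (-0.27 ± 0.07) and Mycn (-0.69 ± 0.21), with a median of -0.22. Their average over the list, centred as for the members, was 0.28, 0.25 and 0.04 in unstressed WT libraries 1 to 3, high in the 2 libraries that were rich in olfactory bulb markers, and the part of those markers in the result was not tested.

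The proteins of the cytosolic ribosome, a separate family of 84 rows with 80 tested, served as the nearest comparison. With stress in WT their median was 0.14, with 74 of 80 above 0 and 0 called. The mitochondrial family had 0.24, with 74 of 77 above 0 and 23 called, so the direction was shared. With stress in KO their median was -0.15, with 6 of 80 above 0, against -0.03 and 29 of 77 for the mitochondrial family. In unstressed KO against WT their median was 0.35 with 21 called higher, against 0.25 and 27. Their average in unstressed KO library 2 was 0.53, above the 0.22 of the mitochondrial members. Within unstressed KO the SD of the average was 0.35 for them and 0.14 for the members. The test shares 1 estimate of spread per gene over the 12 libraries, so the counts called are not a like measure for the 2 families. The difference between the families was not tested.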

How the data were processed

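The authors deposited estimated counts per gene, from Trim Galore 0.6.6, STAR 2.7.9a and RSEM 1.3.1 on mm10, per the submitters' processing notes; no source used here gives the annotation or the strand setting. Counts were rounded, filtered (filterByExpr, minimum count 10, total 15), scaled by TMM and fitted with edgeR 4.0.16 (quasi-likelihood, 12 libraries as 4 group means, 8 residual degrees of freedom, R 4.3.3); Benjamini-Hochberg adjustment ran over all 15199 genes, threshold 0.05. CPM used TMM-scaled library sizes, and log2 CPM a prior count of 2. DESeq2 1.42.0, sva 3.50.0 and the other alternatives are in the closing section. The fit was tested on simulated data. Positions and exon lengths came from GENCODE vM21 (GRCm38; 96.2% of tested genes matched by symbol) and promoters from RefSeq. Members and lists were chosen with earlier results of these data known. Named members were, per comparison, up to 6 largest rises and falls among those called, or the 4 smallest p where fewer than 4 were called, besides Mrpl44, the extremes of level and correlation, and overlapping genes; others were named after their values were seen.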

Additional observations from a re-analysis of the deposited data

How the results depend on the processing

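The members' median log2 difference stayed between 0.17 and 0.29 for stress in WT and between 0.13 and 0.30 for genotype without stress over the 22 alternatives, while the counts of called members (23 and 28) did not hold. For stress in WT the count was 0 when only the groups compared were fitted, with 1 surrogate variable, without both unstressed WT libraries 1 and 2, with the olfactory bulb score as covariate, and without those libraries and unstressed KO library 2; it was 14 with the transcript length trend removed. For genotype without stress it was 0 in those same 5 fits. For genotype average (1 called) it was 11 with DESeq2, 2 with the length trend removed and 0 with the surrogate variable, the covariate and both sets of libraries left out. The interaction (0 called) gave 1 with DESeq2's size factors, 10 with DESeq2 and 3 with the length trend removed (1.3%, 13% and 3.9% of members, against 1.3%, 12.4% and 3.31% of all genes). Leaving out 1 library at a time gave 0 to 28 called for stress in WT, 0 to 28 for genotype without stress, 0 to 10 for the interaction and 0 to 10 for genotype average; stress in KO and genotype with stress gave 0 throughout. The Mrpl44 genotype average (0.02) ranged from -0.01, without stressed WT library 3, to 0.05 when 1 library was left out, and was -0.06 with the length trend removed. Apart from the interaction, shares of all genes called in these alternatives are not given here, so the counts are no result about the members alone. The cause of these changes was not tested. The bulb covariate, the 3 libraries left out together and the length trend were chosen after seeing the data.

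Replicate numbers were not seen to pair the libraries as a whole: 4 of 18 same-numbered pairs correlated over 0.1 (-0.25 to 0.36). The mean correlation was 0.02 for same-numbered pairs and -0.01 for the others. Values were centred within groups of 3 libraries, so these correlations cannot exclude a pairing. With the replicate block, 14 members were called for stress in WT, 20 for genotype without stress and 0 for genotype average, again without the share of all genes called. Of the named levels per length, 9 of 10 moved with the longest transcript as length, and with 250 upstream bases alone the ETS share was 25.0% (7.83% of all promoters) and the YY1 share 5.9% (1.83% of all promoters). With 3 libraries a group, small differences may go unseen.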

Other observations

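Genes that start head to head with members were read in the same comparisons. Of 27 such partners that were tested and are not members themselves, 3 were higher and 4 lower with stress in WT, with a median log2 difference of 0.06 and 18 above 0, where 21.9% of all genes were called in either direction. In unstressed KO against WT, 6 were higher and 5 lower, with a median of 0.07 and 15 above 0, where 23.2% of all genes were called. The difference between partners and members was not tested. Wdfy1 is one of the 27.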
